A study of Mus musculus with 6 samples.

Results

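The genes described here are Neo1, Robo4 and 8 further genes of axon guidance receptors and their partners, Robo1, Nrp1, Plxnc1, Plxnd1, Plxnb2, Rgmb, Ephb4 and Unc5b. These 10 were taken by symbol from a table of 23413 genes. Messenger RNA of hematopoietic stem cells was sequenced. The cells came from bone marrow of mice labelled wild type in both groups and were separated into F4/80 negative and F4/80 positive fractions, with 3 libraries each from 2000 to 5000 cells. F4/80 is a surface protein of macrophages encoded by Adgre1, and the series title concerns its possible acquisition through trogocytosis, the transfer of membrane between cells, linked to the receptor c-Kit. No treatment is named, and the labels state neither age nor sex. The genes were selected on their measured positive against negative difference in this table, so their differences between the groups are descriptions, with no p given.

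Guidance receptors were first studied in growing axons, where netrins, slits, semaphorins, ephrins and repulsive guidance molecules steer the growth cone by attraction or repulsion. The same receptors act in vessels and blood. In mouse marrow, neogenin is known as a receptor of netrin 1 on stem cells and has been linked to their quiescence, and Robo4 as a receptor that helps stem cells to engraft and stay in the niche. Plexins are the receptors of semaphorins, neuropilins their co-receptors, and Ephb4 the receptor of ephrin B2.

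In outline, Neo1, Robo4, Rgmb, Ephb4 and Plxnb2 were lower in each F4/80 positive library than in any negative one, by between 1.55-fold and 20.3-fold. Plxnd1 was lower too, by a smaller margin. Plxnc1 overlapped between the groups and was the most abundant of the 10 in positive libraries, per length. Nrp1 and Robo1 had at most 44 and 28 counts in any library, with overlapping groups, and Unc5b at most 7. Among the wider guidance families, 15 of 36 tested genes fell and 1, Robo3, rose, where 10.9% of all tested genes fell and 9.65% rose. With any 1 library left out, 8 to 13 of the guidance genes fell.

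The bases before the start of Neo1, Robo4 and Ephb4 are shown because these genes had large differences in the same direction and a single annotated start each. They are the 250 bases before the start in the RefSeq promoter table, which is of build GRCm38.p6 and not of the GRCm39 build of the counts. Neo1 lies at chr9:59036442-59036691 on the minus strand, Robo4 at chr9:37401722-37401971 on the plus strand and Ephb4 at chr5:137349859-137350108 on the plus strand. Capitals mark GGAA, the core of sites for ETS factors, and GGGCGG, the GC box, on either strand.
Neo1: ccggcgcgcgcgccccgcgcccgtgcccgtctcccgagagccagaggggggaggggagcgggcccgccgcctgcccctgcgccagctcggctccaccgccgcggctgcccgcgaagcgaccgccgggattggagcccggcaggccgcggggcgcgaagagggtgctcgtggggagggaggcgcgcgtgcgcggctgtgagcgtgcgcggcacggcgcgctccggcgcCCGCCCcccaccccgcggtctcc
Robo4: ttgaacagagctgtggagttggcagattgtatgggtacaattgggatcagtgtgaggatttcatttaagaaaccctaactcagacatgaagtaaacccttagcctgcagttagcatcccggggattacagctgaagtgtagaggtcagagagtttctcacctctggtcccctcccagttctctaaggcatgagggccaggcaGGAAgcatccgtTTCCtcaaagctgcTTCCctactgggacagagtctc
Ephb4: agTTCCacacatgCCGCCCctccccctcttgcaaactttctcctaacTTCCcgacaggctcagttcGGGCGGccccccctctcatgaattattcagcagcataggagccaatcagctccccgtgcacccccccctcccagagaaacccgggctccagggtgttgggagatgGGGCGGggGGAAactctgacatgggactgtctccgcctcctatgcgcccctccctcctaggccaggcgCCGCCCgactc
The windows differ widely in composition. Neo1 is 83.2% G or C with 45 CG dinucleotides, more than 99.6% of the 32851 windows of the table hold, while Robo4 is 49.6% G or C with 2. The median window is 52.4% G or C with 6. Neo1 has no GGAA and 1 GGGCGG, Robo4 has 3 GGAA and no GGGCGG, and Ephb4 has 3 and 4. Of all windows, 93.4% hold a GGAA and 32.7% a GGGCGG. Neither AGATAA, a form of the GATA site (9.99% of all windows), nor TATAAA (7.59%, read on the sense strand) occurs in these 3 windows. All 10 genes matched the table, with 13 windows. Plxnb2 has 2 annotated starts and Rgmb 3. These matches are descriptions of letters, not of bound factors.

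Total counts ranged from 18637526 to 21042379 per library, and 14451 genes passed the filter on low counts. Levels are in CPM, the count of a gene as a rate per library total, with the totals scaled by TMM factors that correct for library composition. The floor of 3 counts is 0.146 to 0.167 CPM and covers counting error only. The 10 listed stem cell markers summed to between 4178 and 5059 CPM in negative and between 2987 and 3265 CPM in positive libraries, with Kit at 1732 ± 219 and 1444 ± 206 CPM (SD, n = 3). The 12 macrophage markers summed to between 48.9 and 70.6 CPM in negative and between 336 and 762 CPM in positive libraries. Adgre1, the gene of the protein used for the sort, is 1 of them, at 2.30 ± 0.782 and 32.1 ± 9.46 CPM (SD, n = 3). All 10 proliferation markers rose by the edgeR call. In such sorted pools, fewer cells of a kind and less RNA per cell cannot be told apart. At a Benjamini-Hochberg adjusted p below 0.05 in edgeR's quasi-likelihood test, 1395 genes rose and 1572 fell in positive libraries, and 942 and 1970 with no composition factor.

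Neo1 encodes neogenin, a receptor for netrins and repulsive guidance molecules (ENSMUSG00000032340, GRCm39 chromosome 9, 58781970 to 58943724, minus strand). In the order of replicates 1 to 3, it had 143, 160 and 418 counts in the negative libraries and 23, 5 and 6 in the positive ones. The groups did not overlap, negative replicate 3 was far above the others of its group, and most of the positive counts came from replicate 1. In CPM these were 12.3 ± 7.98 and 0.601 ± 0.546 (SD, n = 3). The log2 fold change was -4.34 (SE 0.65), or 20.3-fold lower. It was 12.6-fold without negative replicate 3 and 41.8-fold without positive replicate 1. With 34 counts over the 3 positive libraries, the size of the difference rests on few reads.

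Rgmb encodes repulsive guidance molecule B, a membrane-anchored ligand of neogenin and a co-receptor for bone morphogenetic proteins (ENSMUSG00000048027, GRCm39 chromosome 17, 16023450 to 16051301, minus strand). Its counts were 112, 45 and 129 in the negative and 10, 15 and 18 in the positive libraries. The highest positive library lay well below the lowest negative one, and the low negative library was replicate 2. Mean levels were 4.82 ± 2.20 and 0.750 ± 0.187 CPM (SD, n = 3). The log2 fold change was -2.67 (SE 0.46). Per kilobase, Neo1 was 1.12, 3.13 and 2.85 times Rgmb in negative replicates 1 to 3 and 2.02, 0.293 and 0.293 times Rgmb in positive replicates 1 to 3. Positive replicate 1, with most of the Neo1 counts of its group, lay among the negative libraries in this ratio.

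Unc5b, a netrin receptor of the Unc5 family and a binding partner of Robo4 in vessels, had 7, 0 and 7 counts in the negative and 0, 0 and 1 in the positive libraries. It did not pass the filter. The summed counts were 14 in the negative and 1 in the positive libraries, a ratio of 0.0702 after scaling by total counts. That ratio is a description only, from few reads. With 1 negative library at 0, the groups overlap.

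Robo4 encodes the roundabout receptor of endothelium and blood stem cells (ENSMUSG00000032125, GRCm39 chromosome 9, 37313193 to 37326411, plus strand). Its counts were 1423, 1532 and 1664 in the negative and 552, 549 and 532 in the positive libraries. Each group was tight and the gap between them wide. Levels were 78.4 ± 8.13 and 28.7 ± 2.37 CPM (SD, n = 3), and the log2 fold change was -1.45 (SE 0.12). Robo1, the slit receptor best known from neurons, had 2, 7 and 28 counts in the negative and 4, 20 and 21 in the positive libraries, and the groups overlapped. Its log2 fold change of 0.31 (SE 0.88) was 1.74 without negative replicate 3, -0.20 without negative replicate 1 and -0.01 without positive replicate 2, so its direction turns with single libraries. Per kilobase, Robo4 was above Robo1 in all 6 libraries, at no less than 4.91 CPM where Robo1 was at no more than 0.0871 CPM.

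Among the plexins, Plxnc1, the receptor of semaphorin 7A, had 2876, 1714 and 2135 counts in the negative and 1925, 1811 and 2099 in the positive libraries. The negative libraries spread around the positive ones, which were nearly equal, with 113 ± 25.5 and 102 ± 1.28 CPM (SD, n = 3). Its log2 fold change was -0.15 (SE 0.15), and 0.03 without negative replicate 1. Plxnb2, a receptor of class 4 semaphorins and, in mouse blood progenitors, of angiogenin, had 1749, 1834 and 2461 counts in the negative and 1306, 1217 and 1239 in the positive libraries. The groups did not overlap, negative replicate 3 was the highest, and the log2 fold change was -0.63 (SE 0.15). Plxnd1, the receptor of semaphorin 3E in vessels, had 201, 149 and 163 counts in the negative and 132, 139 and 67 in the positive libraries. Positive replicate 3 was low, while positive replicate 2, at 7.73 CPM, came close to negative replicate 2, at 7.81 CPM. The log2 fold change of Plxnd1 was -0.53 (SE 0.31).

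Nrp1 encodes neuropilin 1, a co-receptor for class 3 semaphorins and for vascular endothelial growth factor. Its counts were 23, 12 and 33 in the negative and 44, 44 and 12 in the positive libraries. The groups overlapped, with the 2 highest libraries positive and the lowest positive, too, at 0.587 CPM. Its log2 fold change was 0.64 (SE 0.59). Positive replicate 3, the low library for Nrp1 and Plxnd1, also had the lowest sum of macrophage markers among positive libraries, 336 CPM against 697 and 762 CPM. It was the lowest positive library for Robo4, Plxnb2 and Ephb4, too, at 26.0, 60.6 and 7.19 CPM. Neo1, Robo1, Plxnc1, Rgmb and Unc5b were lowest in another positive library. The part of those markers in the values of the 10 genes was not tested.

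Ephb4 encodes a receptor tyrosine kinase of veins and blood progenitors (ENSMUSG00000029710, GRCm39 chromosome 5, 137348371 to 137376931, plus strand). Its counts were 539, 659 and 625 in the negative and 163, 278 and 147 in the positive libraries. The groups did not overlap, and positive replicate 2 was the highest of its group. Levels were 31.0 ± 4.22 and 10.5 ± 4.40 CPM (SD, n = 3). The log2 fold change was -1.57 (SE 0.27). Zan overlaps it on the opposite strand with 352 counts against 2411 for Ephb4 over all libraries. No source used here says whether counting used strand, so reads of this pair cannot be told apart.

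**Figure D1:**
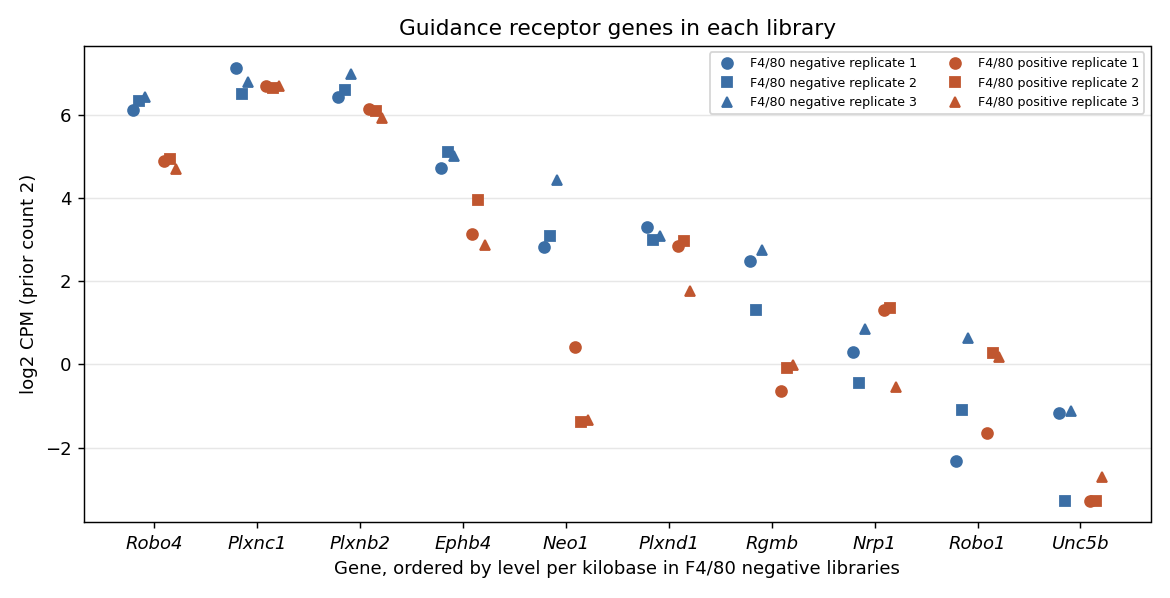
Level of the 10 genes in each library as log2 CPM with a prior count of 2 (vertical axis), by gene (horizontal axis). Blue symbols are F4/80 negative and red symbols F4/80 positive libraries, with a shape per replicate, and the colours separate for Robo4, Plxnb2, Ephb4, Neo1, Plxnd1 and Rgmb.

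Of the 10 genes 9 passed the filter on low counts. The call made over all genes marks 5 of these as lower (Neo1, Robo4, Rgmb, Ephb4 and Plxnb2), where 10.9% of all tested genes were lower and 9.65% higher. The groups did not overlap, with positive libraries lower, for 6 of the 10, against 20.5% of all tested genes, and for 40.6% of all tested genes they did not overlap in one direction or the other. The choice of genes fixed these counts, and nothing is read from them. The median log2 fold change was -0.63 for the 9 and -0.03 for all tested genes.

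The order of the levels per kilobase is given as a description. In negative libraries Robo4 (14.8 ± 1.53 CPM per kilobase), Plxnc1 (13.6 ± 3.06) and Plxnb2 (13.3 ± 2.75) led (SD, n = 3), and their libraries overlapped. Ephb4 followed at 6.68 ± 0.909 CPM per kilobase, apart from its neighbours. Neo1 (1.41 ± 0.916) and Plxnd1 (1.19 ± 0.142) overlapped with each other, and Rgmb stood at 0.628 ± 0.288 CPM per kilobase. Nrp1, Robo1 and Unc5b were at 0.117, 0.0384 and 0.0373 CPM per kilobase, and Robo1 overlapped with each of the other two. In positive libraries the order was Plxnc1 (12.2 ± 0.154), Plxnb2 (8.56 ± 0.630), Robo4 (5.42 ± 0.447), Ephb4 (2.26 ± 0.948) and Plxnd1 (0.826 ± 0.329 CPM per kilobase), each apart from the next. Nrp1, Rgmb, Neo1 and Robo1 followed between 0.184 and 0.0475 CPM per kilobase with overlapping neighbours. Neo1 thus held place 5 of 10 in negative and 8 of 10 in positive libraries, and Robo4 places 1 and 3. The order over all libraries was the same in the FPKM deposited by the authors.

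**Figure D2:**
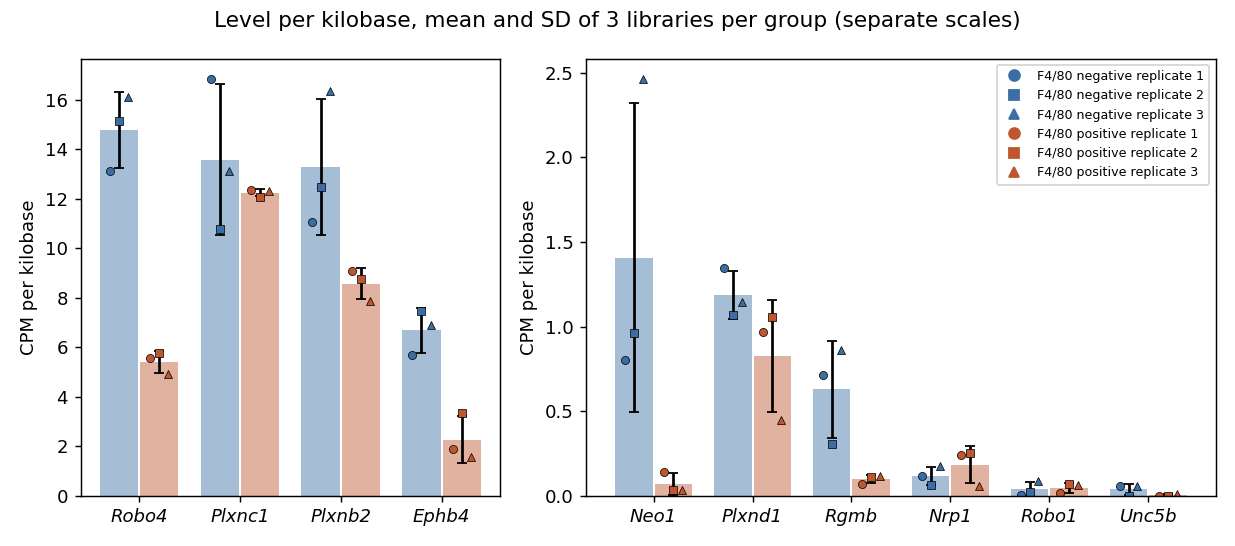
Level per kilobase of gene length, as CPM per kilobase, for each gene, with bars for the mean of 3 libraries, error bars for the SD and symbols for the libraries (blue F4/80 negative, red F4/80 positive). The left and right panels have separate scales, and the wide negative bar of Neo1 comes from replicate 3 at 2.46 CPM per kilobase.

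The spread within a group differed between genes. In negative libraries the highest library exceeded the lowest by 1.23 times for Robo4, 1.26 times for Plxnd1 and 1.31 times for Ephb4, but by 3.07 times for Neo1, 2.81 times for Rgmb and 14.7 times for Robo1. Negative replicate 3 held the highest negative value for 7 of the 10 genes. That library also had the highest sum of stem cell markers, 5059 CPM against 4178 and 4243 CPM. Its sum of endothelial markers was the highest as well, 155 CPM against 116 and 138 CPM in the other negative libraries. Its sums of macrophage, megakaryocyte, stromal and neural, B and T cell and proliferation markers were the lowest of the negative libraries. The part of these markers in the gene values was not tested. In positive libraries Plxnc1 varied by 1.02 times and Robo4 by 1.17 times, and Neo1 by 4.43 times.

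By Pearson's r of log2 CPM over the 6 libraries, among 9546 other genes with an average log2 CPM of at least 3, the genes most like Neo1 were Smad3 (0.9956), Esr1 (0.9949) and Eme2 (0.9939). Smad3, a transducer of TGF-beta signals, had 114, 119 and 139 CPM in the negative and 91.2, 69.9 and 75.3 CPM in the positive libraries. It shared with Neo1 the high negative replicate 3 and, among positive libraries, the high replicate 1. The genes most like Robo4 were Tifa (0.9978), Palld (0.9973) and Txnip (0.9971). Palld, an actin-associated protein gene, had 27.3, 29.4 and 31.5 CPM against 9.48, 10.9 and 8.52 CPM. All 6 values are descriptions over 6 libraries that share the group difference, so many genes reach a high r.

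The wider families put these genes in context. They hold 65 ligands and receptors, of which 54 are listed in the table and 36 were tested. Of the 36, 15 fell and 1 rose by the edgeR test (adjusted p below 0.05), 41.7% and 2.78%, against 10.9% and 9.65% of all tested genes, and the median log2 fold change was -0.70. Most of the 36 are weakly expressed. Among tested genes with an average log2 CPM below 3, 11.2% fell and 2.67% rose, with a median log2 fold change of -0.27. Of the 28 guidance genes at that level 11 fell and 1 rose. Among those at 3 or more 10.7% fell, and 4 of 8 guidance genes did. Under each of the 14 settings, those without 1 library included, 7 genes were lower, namely Efna1, Efnb2, Epha1, Plxna1, Plxna3, Sema3f and Sema7a. Without positive replicate 1, the count of lower genes was 8. In positive libraries all 12 macrophage markers, among them Adgre1 of the sort, and 4 of 5 tested megakaryocyte markers rose. The calls of Siglec1 and Mertk, 2 of the macrophage markers, were each lost under 6 alternatives (edgeR adjusted p up to 0.12 and 0.119). The megakaryocyte list had sums from 327 to 503 CPM in negative and from 1162 to 1606 CPM in positive libraries. Of the 10 stem cell markers 6 fell and 4 (Kit, Slamf1, Cd34 and Ctnnal1) did not pass. The part of these markers in the guidance counts was not tested.

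**Figure D3:**
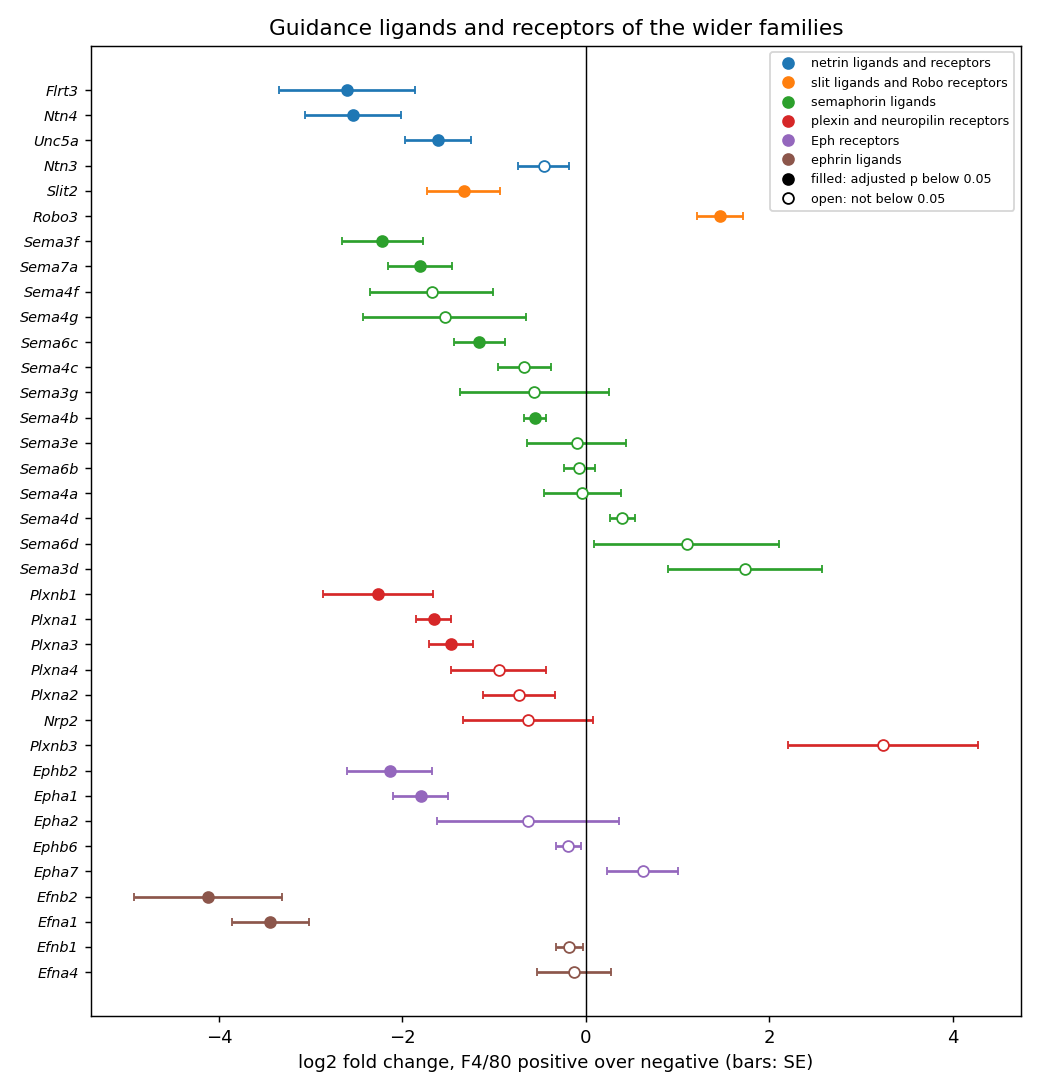
Log2 fold change of F4/80 positive over negative libraries (horizontal axis) with its standard error for 36 tested guidance genes other than the 10, coloured by family. Filled symbols have an edgeR adjusted p below 0.05, with 15 to the left of 0 and Robo3 to the right.

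Efnb2, ephrin B2, the ligand of Ephb4, had the largest fold among the lower genes of the 36. It had 65, 54 and 52 counts in the negative and 1, 8 and 0 in the positive libraries. It was at 2.89 ± 0.258 and 0.166 ± 0.243 CPM (SD, n = 3) and fell by 4.12 on the log2 scale (SE 0.81, edgeR adjusted p = 0.00997, range 5.25e-06 to 0.0476 over the alternatives), lower in all 3 positive libraries. Its fold of 17.4 was 90.1 without positive replicate 2 and 11.4 without positive replicate 3, and it was 29.8 with limma-voom. The positive group holds 9 counts of it. Efna1, ephrin A1, had 327, 302 and 651 counts in the negative and 29, 57 and 27 in the positive libraries, 10.8-fold lower (edgeR adjusted p = 0.0015). Efnb1, a further ligand of Eph receptors, had 22.4 ± 2.51 and 19.8 ± 2.44 CPM (SD, n = 3), and its log2 fold change was -0.18 (SE 0.15). Of 4 tested ephrins 2 fell, and of 5 tested Eph receptors 2 fell. Epha1 was 3.48-fold lower (adjusted p = 0.00485) and Ephb2 4.42-fold (adjusted p = 0.0144). Ephb2, with 4 to 24 counts per library, missed the threshold without negative replicate 3 or without any one positive library (up to 0.0703). Ephb6, an Eph receptor without kinase activity, was the most abundant Eph receptor outside the 10 per kilobase and stood at 40.3 ± 5.53 and 35.3 ± 3.78 CPM (SD, n = 3).

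Of 14 tested semaphorins 4 fell. Sema7a, the ligand of Plxnc1, had 7.91, 6.45 and 7.80 CPM in the negative and 1.55, 3.34 and 1.42 CPM in the positive libraries and was 3.52-fold lower (edgeR adjusted p = 0.00978), while Plxnc1 had overlapping groups. Sema3f, a ligand of neuropilin 2, was 4.65-fold lower (adjusted p = 0.0109). Sema4b was 1.46-fold lower (adjusted p = 0.0155, lost at 0.0578 without positive replicate 1). Sema6c was 2.24-fold lower (adjusted p = 0.0214, up to 0.0723). The call of Sema6c was lost without negative replicate 1 or without any one positive library.

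Sema4d, a ligand of B-type plexins, was the most abundant semaphorin per kilobase. It had 114, 93.4 and 94.8 CPM in the negative and 127, 114 and 159 CPM in the positive libraries, which overlapped narrowly. Its log2 fold change of 0.40 (SE 0.14) missed the threshold (edgeR adjusted p = 0.0684) and passed with the replicate block (0.0289) and DESeq2 (0.0209), with up to 0.207 over the alternatives. The remaining fixed ligands of the plexins, Sema3e, Sema4a and Sema4c, had log2 fold changes of -0.10 (SE 0.54), -0.04 (SE 0.42) and -0.67 (SE 0.29) and did not pass. Sema3a and Sema3c have no row in the table.

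Of 7 tested plexin and neuropilin genes 3 fell. Plxna1, a receptor for class 3 and class 6 semaphorins, had 352, 252 and 334 counts in the negative and 87, 102 and 96 in the positive libraries, 3.16-fold lower (edgeR adjusted p = 0.00124). Plxna3 was 2.76-fold lower (adjusted p = 0.00454). Plxnb1, the high-affinity receptor of semaphorin 4D, was 4.84-fold lower (adjusted p = 0.0306), and it missed the threshold on leaving out negative replicate 2 or 3, or positive replicate 1 or 3 (up to 0.0984). Its fold was 8.26 without positive replicate 2. Plxna4 had 6.90 ± 3.26 and 3.56 ± 2.39 CPM (SD, n = 3) and did not pass (log2 fold change -0.95, SE 0.52, adjusted p = 0.225). Its fold of 1.93 was 3.14 without positive replicate 3 (adjusted p = 0.0725).

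Of the netrin family, 3 of 4 tested genes fell. Ntn4, netrin 4, had 61, 39 and 60 counts in the negative and 15, 7 and 4 in the positive libraries, 5.81-fold lower (edgeR adjusted p = 0.012). The value was 9.12-fold without positive replicate 1, and the call was lost without positive replicate 2 (0.0524). Unc5a, a netrin receptor, was 3.05-fold lower (adjusted p = 0.0171, lost without negative replicate 3 or positive replicate 1, up to 0.0606). Flrt3, a ligand of Unc5 receptors, was 6.05-fold lower (adjusted p = 0.0395). It missed the threshold on leaving out negative replicate 1 or 3, or positive replicate 1 or 2 (up to 0.139), and its fold was 14.8 without positive replicate 3. Ntn3 was at 3.50 ± 0.500 and 2.55 ± 0.293 CPM (SD, n = 3) and did not pass (adjusted p = 0.278), and it overlaps Tbc1d24 on the same strand. Flrt2 had at most 9 counts in any library. Ntn1, which encodes netrin 1, Dcc and Rgma have no row in the table. Unc5a, Ntn4, Flrt3 and Epha1, 4 of the 15 lower genes, overlap a gene on the opposite strand (Hk3, Gm15915, Macrod2 and Zyx), which makes the origin of their reads uncertain.

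Robo3 and Slit2 were the 2 tested genes of the slit family outside the 10. Robo3, a receptor of commissural axons, had 98, 93 and 57 counts in the negative and 218, 181 and 266 in the positive libraries, without overlap. It was at 4.19 ± 1.10 and 11.6 ± 1.48 CPM (SD, n = 3) and rose 2.76-fold (log2 fold change 1.46, SE 0.25, edgeR adjusted p = 0.00531, up to 0.0265 over the alternatives). Robo3 (GRCm39 chromosome 9, 37326965 to 37344542, minus strand) is the direct neighbour of Robo4, with which it converges. The annotated ends lie 553 bases apart with 0 genes of the table between them. The neighbours thus differed in opposite directions, Robo4 lower and Robo3 higher, in all 3 positive libraries. Slit2, a ligand of Robo receptors, was 2.51-fold lower (edgeR adjusted p = 0.0485). That call was lost on leaving out any one library except negative replicate 1, with limma-voom and with no low-count filter (up to 0.141). Slit3 had 4 to 18 counts per library, and Slit1 had 6 counts in negative replicate 1 and 0 in the 5 other libraries, which allows up to 0.167 CPM in each.

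Neogenin and RGM proteins also join the receptor complex for bone morphogenetic proteins. Of 13 tested genes of this complex and its targets, 6 fell and 0 rose, 46.2% against 10.9% of all tested genes, with a median log2 fold change of -0.81. At an unadjusted p below 0.05, 0 rose in edgeR, and with DESeq2 and limma-voom 0 rose by the adjusted p. Acvr2a, a type II receptor, was 1.93-fold lower (edgeR adjusted p = 0.00748), and Bmpr2, another type II receptor, 1.75-fold (adjusted p = 0.0294). The call of Bmpr2 was lost on leaving out negative replicate 2, or positive replicate 1 or 3 (up to 0.101). Smad5, a transducer, was 1.35-fold lower (adjusted p = 0.0201), lost on leaving out any one library except negative replicate 1 (up to 0.0738). Smad1, a related transducer, was at 93.0 and 80.7 CPM with a log2 fold change of -0.21 (SE 0.10) that did not pass (adjusted p = 0.194). Bmp4, a ligand, had 11, 18 and 82 counts in the negative and 2, 4 and 4 in the positive libraries, 10.5-fold lower (adjusted p = 0.0285). Its fold was 4.10 without negative replicate 3, and the call was lost there, with limma-voom and without any one positive library (up to 0.0963). Orc4 overlaps Acvr2a on the opposite strand. The list count was 2 without negative replicate 3, 3 without positive replicate 1, 2 without positive replicate 2 and 1 without positive replicate 3.

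Of 33 tested genes for proteins that carry guidance signals inside the cell, 8, or 24.2%, fell and 0 rose, against 10.9% and 9.65% of all tested genes, with a median log2 fold change of -0.15. The replicate block gave 13 lower and 1 higher, Srgap2, which also passed with DESeq2 and without negative replicate 1. In edgeR 1 gene was higher at an unadjusted p below 0.05. Ptk2, focal adhesion kinase, had 480, 462 and 567 counts in the negative and 158, 202 and 170 in the positive libraries, 2.74-fold lower (edgeR adjusted p = 0.00144). Ablim1, an actin-binding protein, fell from 99.4 ± 4.26 to 27.1 ± 9.87 CPM (SD, n = 3; adjusted p = 0.00158). Rgs3, a regulator of G proteins that binds ephrin B in neurons, was 1.89-fold lower (adjusted p = 0.00399). Rras, a small GTPase that plexins inactivate, was 1.96-fold lower (adjusted p = 0.00405). Vasp, an actin filament regulator and the most abundant uncalled gene of the list per kilobase, was at 130 ± 9.40 and 122 ± 8.65 CPM (SD, n = 3). Without negative replicate 3 the count of lower genes was 5 and without positive replicate 1 it was 4.

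Because several of the 10 genes are also genes of endothelium, 10 endothelial markers were read in the same libraries. They summed to between 116 and 155 CPM in negative and between 89.1 and 120 CPM in positive libraries, so the groups overlapped in the sum. Most of that sum was Egfl7, with 69.8, 80.4 and 80.1 CPM in the negative and 55.7, 74.9 and 64.5 CPM in the positive libraries. The sum therefore says little of the other markers. Cdh5, the defining cadherin of endothelium, had 6, 3 and 0 counts in the negative and 0 in each positive library. Of 10 markers 3 were below 1 CPM in every negative library and 5 in every positive library, and 3 were at 0 in all positive libraries. Of the 7 tested, 4 fell and 1 rose. Those that fell were Cldn5, Emcn, Flt4 and Sox18, with log2 fold changes of -4.84, -1.12, -2.18 and -2.04. Stab2 rose, with a log2 fold change of 2.73 whose call did not hold under every alternative. Kdr, at -0.11, did not pass. The calls of Emcn, Flt4 and Sox18 were lost on leaving out negative replicate 3, or positive replicate 1 or 3 (edgeR adjusted p up to 0.0809). Per kilobase, Egfl7 was the most abundant of the markers, at 21.4 CPM in negative and 18.2 CPM in positive libraries, and did not pass. The part of these markers in the values of the 10 genes was not tested. Of 8 stromal and neural markers in the table, 3 were below 1 CPM in every negative and 5 in every positive library, and of 7 B and T cell markers 2 and 4. Others were well expressed. Pdgfrb was at 54.95 ± 5.90 and 83.9 ± 10.6 CPM and rose (edgeR adjusted p = 0.0117, 0.054 without positive replicate 3). Cd79b was at 62.65 ± 8.83 and 57.2 ± 11.5 CPM (SD, n = 3) and did not pass.

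**Figure D4:**
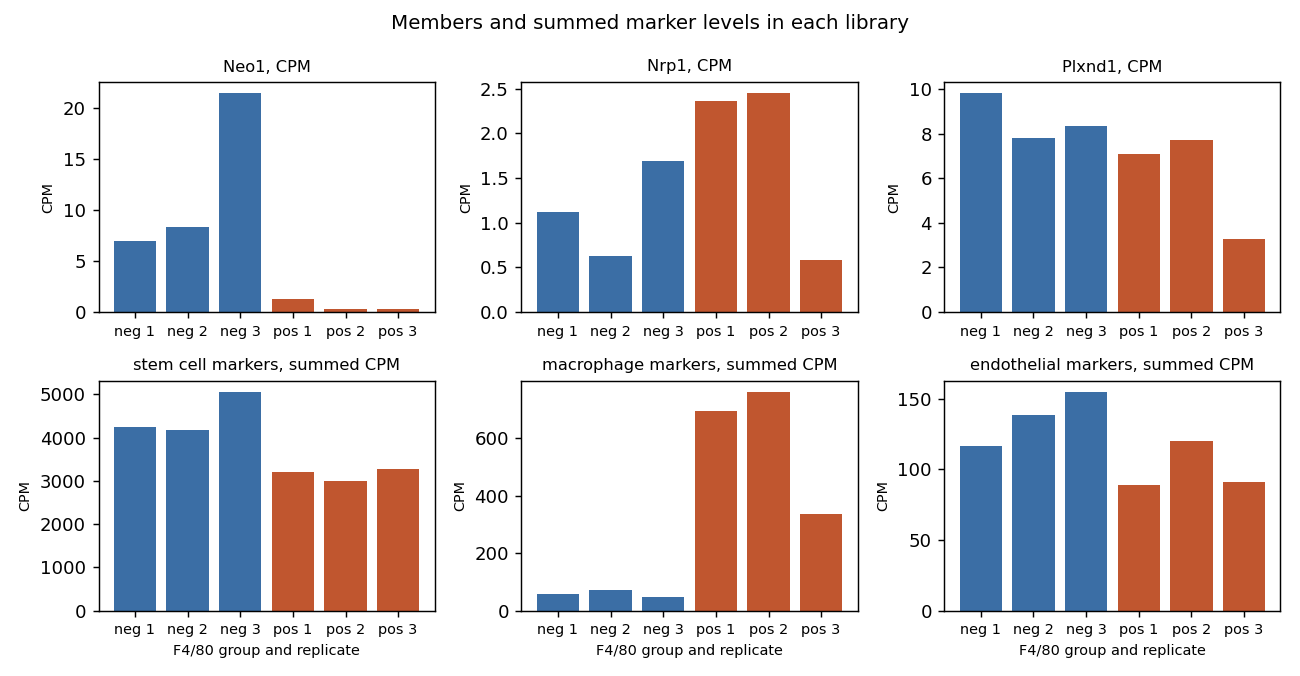
CPM of Neo1, Nrp1 and Plxnd1 (top) and summed CPM of the stem cell, macrophage and endothelial markers (bottom) in each library, with blue bars for F4/80 negative and red bars for F4/80 positive replicates 1 to 3. Positive replicate 3 is the lowest positive library for Nrp1, Plxnd1 and the macrophage markers, as it is for Robo4, Plxnb2 and Ephb4, which are not shown. Negative replicate 3 is the highest library for Neo1, the stem cell markers and the endothelial markers.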

How the data were processed

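Messenger RNA was sequenced from sorted hematopoietic stem cells, 3 F4/80 negative and 3 F4/80 positive libraries. Per the labels' protocols, RNA was extracted on micro columns and libraries were made with a stranded SMARTer kit. HISAT2 2.0.5, DESeq2 and GRCm39 are named, with no role, per the submitters' processing notes. No source used here gives the counter, the annotation release or the strand setting.

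The raw counts per gene deposited by the authors were tested. The normalized signal deposited by the authors, the log2 fold changes of the authors and the p-values of the authors were not used for any result. The FPKM deposited by the authors served to check the order of levels. No value column belonged to other samples.

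The test was edgeR 4.0.16 in R 4.3.3 (filterByExpr, minimum count 10 and total 15, TMM, glmQLFit and glmQLFTest, no covariates), with Benjamini-Hochberg adjustment over 14451 genes. Alternatives were DESeq2 1.42.0, limma-voom (limma 3.58.1), other scalings and filters, the replicate block and leaving out each library. The edgeR step was tested on simulated data. Log2 CPM use a prior count of 2. Standard errors are those implied by the F test.

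The genes and lists were chosen with earlier results of these data known. The text names the 10 genes, of each list up to 4 called genes by p and the most abundant uncalled gene, the fixed ligands and markers, and the 3 genes most like Neo1 and Robo4. Nothing in the labels ties the libraries to separate animals, and p-values therefore reflect only how much the 3 libraries of a group vary, possibly for technical reasons. Libraries of a group differed by more than sampling noise (chi-square per degree of freedom 11.8 to 24.9). Same-numbered libraries of the groups deviated together (r from 0.214 to 0.284, each over 0.1). The numbers, 4, 5 and 7 in the labels of each group and written here as replicates 1 to 3, may therefore mark pairs. The labels do not say so. The main test has no term for pairs, and its standard errors and adjusted p are unpaired. The replicate block is the paired alternative. Blocked values appear only where they change a call or the count of a list.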

Additional observations from a re-analysis of the deposited data

How the results depend on the processing

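With the replicate block, which treats equal replicate numbers as pairs, 2105 genes were higher and 2429 lower, against 1395 and 1572 in the main, unpaired test. The block gave 3 higher guidance genes outside the 10 (Robo3, Sema4d and Plxnb3) and 13 lower and 1 higher effector genes. Of the RGM and BMP list 7 genes were lower with it, against 6. It changed no other call named in the report except that of Kit (adjusted p = 0.00415). DESeq2 gave 3 higher guidance genes (the same 3) and 1 higher effector gene, and limma-voom 2 (Robo3 and Plxnb3). Leaving out single libraries gave 656 to 1437 higher and 802 to 1612 lower genes in all, 1 to 2 higher and 8 to 13 lower guidance genes, 1 to 5 lower and 0 higher genes of the RGM and BMP list, and 0 to 1 higher and 4 to 8 lower effectors. Over all genes, each library except negative replicates 1 and 2 moved both counts by over 1.5 times when left out (750 higher and 812 lower without negative replicate 3, and 824 and 841, 723 and 907, and 656 and 802 without positive replicates 1 to 3). With no composition factor 12 effectors were lower. With no composition factor the median of all genes was -0.10, against -0.03. Among the named genes refitted under each alternative, those called kept their direction. Depth limits Unc5b, Robo1 and Nrp1, with counts of at most 7, 28 and 44 in any library.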

Other observations

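Genes of the lists with wide differences that the naming rule does not cover were seen beside those above and were chosen after their values were seen. Bmpr1a, a type I receptor for bone morphogenetic proteins, had 24, 1 and 71 counts in the negative and 0, 1 and 0 in the positive libraries and did not pass the filter, because negative replicate 2 was as low as the positive libraries. Plxnb3 had 0, 8 and 0 counts in the negative and 36, 27 and 13 in the positive libraries, a log2 fold change of 3.24 (SE 1.04, edgeR adjusted p = 0.0567 and 0.0261 with the replicate block).

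Among the endothelial markers, Cldn5, a tight junction gene, had 58, 96 and 215 counts in the negative and 3, 9 and 0 in the positive libraries. It fell by 4.84 on the log2 scale (SE 0.85, edgeR adjusted p = 0.00605, up to 0.0346 over the alternatives), or 28.7-fold, with 75.1-fold without positive replicate 2, 17.9-fold without negative replicate 3 and 18.7-fold without positive replicate 3. Like Neo1, Cldn5 was highest in negative replicate 3. Stab2, a scavenger receptor of sinusoidal endothelium, had 1, 61 and 25 counts in the negative and 202, 249 and 110 in the positive libraries. It passed the test (log2 fold change 2.73, adjusted p = 0.0442) and lost the call with DESeq2, with no composition factor, and on leaving out negative replicate 3 or any one positive library (up to 0.139). Its fold of 6.65 was 15.1 without negative replicate 2 and 14.0 with limma-voom. Kdr, the receptor of vascular endothelial growth factor with which neuropilin 1 acts, was at 6.98 ± 3.24 and 6.46 ± 1.70 CPM (SD, n = 3), with overlapping groups.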
